A study of Mus musculus with 12 samples.

Results

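The genes described here encode the MHC class I molecule and its close relatives, together with the regulator Nlrc5. They were chosen by name, as 10 of the 24062 genes counted in 12 RNA-seq libraries of mouse colon tumours. They are the light chain gene B2m, the heavy chain genes H2-K1, H2-D1, H2-Q2, H2-Q4, H2-T23, H2-T22 and H2-M3, the CD1d heavy chain gene Cd1d1, and Nlrc5. All 10 were in the count table, and 9 passed the filter on low counts. H2-T22 did not, with 1 read in 1 library.

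The tumours came from Balb/c bone marrow chimeras in which marrow and host were each either wild type (WT) or St2-/-, that is, lacking the receptor for the cytokine IL-33, whose gene is Il1rl1. Groups are written as marrow => host, and each had 3 libraries: WT => WT, St2-/- => WT, WT => St2-/- and St2-/- => St2-/-. All hosts, the WT ones included, were irradiated, given marrow, left for 8 weeks and then injected once a week, 6 times, with azoxymethane (AOM), a carcinogen that induces colon tumours, at 10 mg/kg. Tumours were excised 13 or 14 weeks after the last injection, from 11 males and 1 female, which is WT => St2-/- replicate 3. The age of the mice, the share of host blood cells that outlived the irradiation, and whether each tumour came from a different mouse are not in the labels, which call the libraries biological replicates. A St2-/- host lacked the receptor in the cells that irradiation and transplant do not replace, and St2-/- marrow lacked it in the blood cells that grew from it. Library numbers had 5 digits for all 6 WT hosts and 3 digits for all 6 St2-/- hosts, so a cohort and the host genotype cannot be told apart.

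Class I molecules show peptides from inside the cell to CD8 T cells. A polymorphic heavy chain (H2-K and H2-D in the mouse) pairs with beta-2-microglobulin, the invariant light chain, after the proteasome has made the peptide and the TAP transporter has carried it into the endoplasmic reticulum. Non-classical chains of the Q, T and M regions have narrower roles, and CD1d presents lipids to NKT cells. NLRC5 is a regulator that enters the nucleus, binds a set of proteins assembled on the SXY module of class I promoters and raises their transcription. Interferon gamma raises NLRC5, and also acts on class I promoters through IRF1.

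Of the members, B2m lies at chr2:122147686-122153083 (GRCm38, GENCODE M21 annotation), Nlrc5 at chr8:94434356-94527272 and Cd1d1 at chr3:86995834-86999441. The other members are in the MHC on chromosome 17. H2-K1 lies at chr17:33996017-34000347, H2-D1 at chr17:35262730-35267499, H2-Q2 at chr17:35342242-35346762 and H2-Q4 at chr17:35379617-35385290. H2-T23 lies at chr17:36029773-36032855, H2-T22 at chr17:36037128-36042747 and H2-M3 at chr17:37270220-37274484. All 10 are annotated as protein coding.

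The promoters of the members are shown first, as background on their sequence. Their activity was not measured, and their part in any difference between groups was not tested. RefSeq promoter windows (GRCm38.p6, a C57BL/6 reference) were matched for 8 of the 10 members, and no window was matched for Nlrc5 or Cd1d1. The 7 windows of members that passed the filter follow, each holding the 250 bases before the RefSeq start, 5′ to 3′ on the gene's strand. They span chr2:122147437-122147686 (B2m, plus strand), chr17:34000334-34000583 (H2-K1, minus), chr17:35262844-35263093 (H2-D1, plus) and chr17:35342057-35342306 (H2-Q2, plus). The others span chr17:35379367-35379616 (H2-Q4, plus), chr17:36032702-36032951 (H2-T23, minus) and chr17:37269984-37270233 (H2-M3, plus). RefSeq and GENCODE starts differ for several of them, so a window can reach into the GENCODE gene. Capitals mark the letters of 5 motifs on either strand, and neighbouring or overlapping matches run together.
B2m: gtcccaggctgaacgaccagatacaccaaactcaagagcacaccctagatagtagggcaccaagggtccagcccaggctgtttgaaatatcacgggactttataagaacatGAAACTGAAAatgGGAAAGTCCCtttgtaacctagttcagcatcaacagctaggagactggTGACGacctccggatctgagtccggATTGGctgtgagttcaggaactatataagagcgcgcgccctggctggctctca
H2-K1: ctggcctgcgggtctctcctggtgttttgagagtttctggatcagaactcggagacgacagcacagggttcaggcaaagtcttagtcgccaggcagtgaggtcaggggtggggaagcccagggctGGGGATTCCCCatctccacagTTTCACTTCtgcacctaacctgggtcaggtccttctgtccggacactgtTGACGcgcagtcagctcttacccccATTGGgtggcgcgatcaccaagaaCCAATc
H2-D1: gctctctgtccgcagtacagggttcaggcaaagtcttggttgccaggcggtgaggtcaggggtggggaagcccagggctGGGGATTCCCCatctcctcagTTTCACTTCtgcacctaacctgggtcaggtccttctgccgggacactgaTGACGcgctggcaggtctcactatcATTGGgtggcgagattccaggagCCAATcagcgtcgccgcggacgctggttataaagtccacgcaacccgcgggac
H2-Q2: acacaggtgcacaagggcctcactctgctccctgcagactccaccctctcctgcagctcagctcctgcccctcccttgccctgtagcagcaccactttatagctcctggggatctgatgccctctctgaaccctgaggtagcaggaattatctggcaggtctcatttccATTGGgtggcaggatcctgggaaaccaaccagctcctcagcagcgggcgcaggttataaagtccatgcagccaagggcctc
H2-Q4: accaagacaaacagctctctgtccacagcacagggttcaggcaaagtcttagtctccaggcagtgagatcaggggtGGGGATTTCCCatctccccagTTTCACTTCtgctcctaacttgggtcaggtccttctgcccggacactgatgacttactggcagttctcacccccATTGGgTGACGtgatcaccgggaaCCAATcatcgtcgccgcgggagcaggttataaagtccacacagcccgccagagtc
H2-T23: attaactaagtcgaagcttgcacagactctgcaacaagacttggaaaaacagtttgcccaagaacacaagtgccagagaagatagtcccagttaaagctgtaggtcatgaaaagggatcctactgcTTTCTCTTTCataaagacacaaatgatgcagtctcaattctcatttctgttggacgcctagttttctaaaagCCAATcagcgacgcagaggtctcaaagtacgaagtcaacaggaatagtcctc
H2-M3: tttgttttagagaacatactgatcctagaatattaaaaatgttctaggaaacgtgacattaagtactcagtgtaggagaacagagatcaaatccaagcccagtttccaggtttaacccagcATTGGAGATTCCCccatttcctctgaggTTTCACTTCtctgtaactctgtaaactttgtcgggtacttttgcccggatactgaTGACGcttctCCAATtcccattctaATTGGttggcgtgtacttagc
Of 6 motifs searched, 5 are described. They were the interferon-stimulated response element with a 2-base spacer, searched as TTTC, any 2 bases and TTTC, and in a shorter form that ends in TTC, the CCAAT letters of the Y box, the TGACG letters of the cyclic AMP response element, and the NF-kB consensus. The longer interferon element was in 3 of the 8 windows (B2m, H2-T23 and H2-T22), against 2.98% of all 32851 RefSeq windows of the same length. The shorter form was in 4 other windows (H2-K1, H2-D1, H2-Q4 and H2-M3), against 6.31%. H2-Q2 held neither form in this window. CCAAT was in 8 of 8 windows, against 33.8% of all. TGACG was in 6, against 17.8%, and was not in the H2-Q2 or H2-T23 window. The NF-kB consensus was in 6, against 3.9%, with the same 2 exceptions. Class I genes are duplicates of each other, so these windows are not independent of each other.

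How well a class I gene can be counted differs between members, because reads that fit several places equally well entered no gene's count. Of the 50-base windows (the read length) in the longest coding transcript, none was shared with another gene for B2m or Nlrc5, and 0.58% were for H2-M3. The share was 8.79% for H2-K1, 8.74% for H2-Q2 and 14.3% for H2-D1. It was 29.8% for H2-T23, 39.2% for H2-Q4 and 44.7% for H2-T22. H2-T22 shared 37.9% of its windows with H2-T10 alone, and Cd1d1 shared 25.8% with Cd1d2. An opposite-strand gene overlaps B2m, H2-Q4, H2-T23, H2-T22 and Nlrc5, and strand use in counting is not given in the sources used here, so reads of these pairs may not be separate. The reference carries the b haplotype of the MHC and Balb/c mice the d haplotype, as general background. Loss of reads through mismatches to the reference was not tested, and it makes the order of levels among the MHC genes less certain than differences of 1 gene between groups. The d haplotype gene H2-L had at most 6 reads in any library. Whether reads of this gene were counted under H2-D1 or another chain gene was not tested.

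Gene counts per library summed to between 10293818 and 12962496, the members held 0.103% to 0.532% of them, and all libraries came from 1 flow cell lane. All 12 epithelial markers were detected, with summed levels of 6617 to 20535 CPM (depth-scaled counts after TMM). Il1rl1, the targeted gene, was at 36.5 to 275 CPM in the 6 WT hosts and at 7.3 to 25.0 CPM in the 6 St2-/- hosts, and it fell in the comparison of hosts (log2 fold change -3.42 ± 0.52, SE, edgeR adjusted p = 0.00984). Whether the reads left in St2-/- => St2-/- tumours, 7.91 to 13.4 CPM, lie outside the deleted part was not tested. WT => St2-/- replicates 2 and 3 stood apart from the other libraries in an earlier account of these data, and results are given without them below.

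The 6 St2-/- hosts were compared with the 6 WT hosts, averaged over both marrows, to ask how host genotype relates to class I expression in the tumour. In this comparison B2m, 6 class I heavy chain genes and Nlrc5 fell, and Cd1d1 did not pass the test. Of the 9 members tested, 8 fell and none rose (edgeR, adjusted p under 0.05), while 1.08% of all 15060 genes tested fell. The largest fall was that of Nlrc5 and the smallest that of H2-M3. The median log2 fold change was -1.52 over the 9 members and -0.0015 over all genes. In 7 of the 9 the libraries of WT and St2-/- hosts did not overlap, all lower in St2-/- hosts, against 1.71% of all genes. The direction of all 9 held under each of the 22 other settings run, and the DESeq2 Wald test (7.96% of all genes called) and limma-voom (12.3%) also called 8. The 8 calls became 0, and 0.0512% of all genes, when WT => St2-/- replicates 2 and 3 were both left out, which leaves that group with 1 library, assumed to vary like the others. The log2 fold changes then were -1.16 to -2.60 in these 8 genes, with adjusted p of 0.106 to 0.164. Since the tissue was bulk tumour, fewer cells of a type that express these genes and less RNA per cell cannot be told apart.

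**Figure D1:**
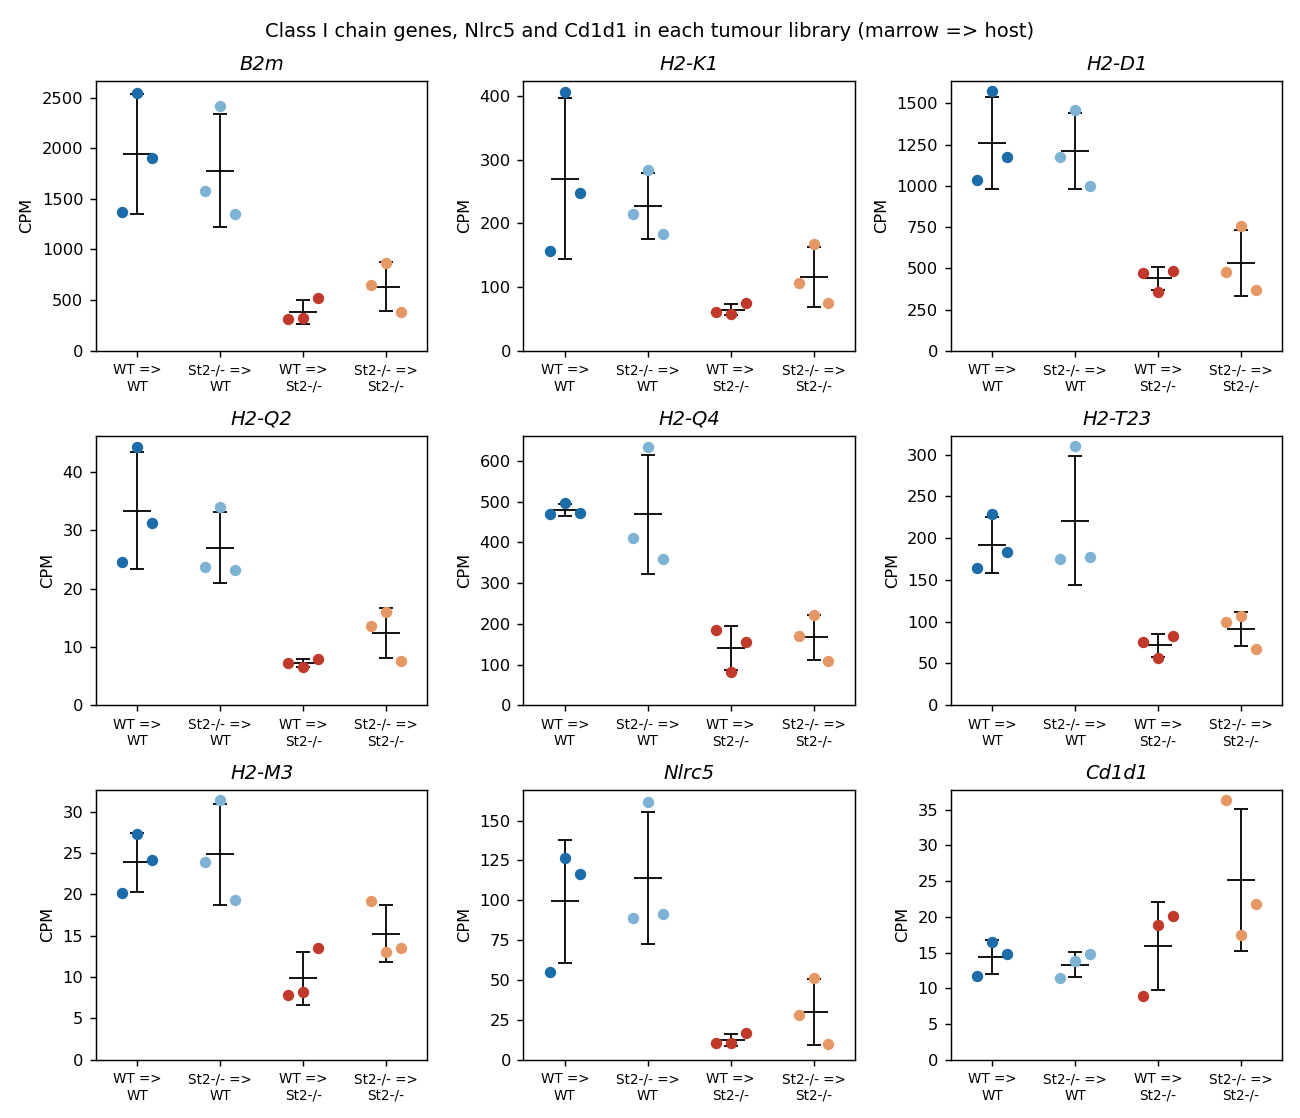
CPM of the 9 members that passed the filter, 1 panel per gene with its own axis from 0, in the 4 groups (marrow => host). Points are libraries, long ticks are means and bars are SD (n = 3). The group means of St2-/- hosts sit lower in every panel but that of Cd1d1, and in the H2-K1 panel 1 St2-/- host lies above 1 WT host. B2m is at 1349 to 2549 CPM in WT hosts and at 312.6 to 864.0 CPM in St2-/- hosts.

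B2m, the light chain that every class I heavy chain needs to reach the cell surface, was at 1373, 2549 and 1908 CPM in WT => WT tumours and at 1573, 2413 and 1349 CPM in St2-/- => WT tumours. It was at 312.6, 324.4 and 522.5 CPM in WT => St2-/- tumours and at 650.5, 864.0 and 383.5 CPM in St2-/- => St2-/- tumours. The highest St2-/- host library lay below the lowest WT host library. B2m was 3.76-fold lower in St2-/- hosts (log2 fold change -1.91 ± 0.26, SE, edgeR adjusted p = 0.00698).

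H2-K1, the classical K heavy chain gene, was at 157, 405.6 and 248 CPM in WT => WT and at 215, 283.1 and 182.7 CPM in St2-/- => WT tumours. In St2-/- hosts it was at 61.02, 57.48 and 74.36 CPM with WT marrow and at 105.8, 166.8 and 74.92 CPM with St2-/- marrow. The hosts overlapped in 1 pair of libraries, since St2-/- => St2-/- replicate 2 lay above WT => WT replicate 1. H2-K1 was 2.87-fold lower in St2-/- hosts (log2 fold change -1.52 ± 0.25, edgeR adjusted p = 0.0185). Its adjusted p was 0.0612 without St2-/- => WT replicate 2, 0.0661 without St2-/- => St2-/- replicate 1, and 0.0539 with a leukocyte marker score as a covariate.

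H2-D1, the classical D heavy chain gene, was at 1037, 1574 and 1174 CPM in WT => WT and at 1177, 1460 and 998.2 CPM in St2-/- => WT tumours. It was at 473.7, 355.7 and 486.6 CPM in WT => St2-/- and at 477.3, 757.3 and 368.9 CPM in St2-/- => St2-/- tumours. No St2-/- host reached the level of any WT host. The gene was 2.55-fold lower in St2-/- hosts (log2 fold change -1.35 ± 0.20, edgeR adjusted p = 0.00873).

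Among the Q region chains, H2-Q4 was at 469.1, 496.5 and 471.5 CPM in WT => WT and at 411.3, 635 and 359.9 CPM in St2-/- => WT tumours. In St2-/- hosts it was at 185, 81.74 and 155.4 CPM with WT marrow and at 170, 221.3 and 109.4 CPM with St2-/- marrow. The WT => WT libraries were nearly alike for this gene, and the hosts did not overlap. H2-Q4 was 3.09-fold lower in St2-/- hosts (log2 fold change -1.63 ± 0.24, edgeR adjusted p = 0.00875). H2-Q2, the member of lower level whose promoter window held only the CCAAT letters of the 5 motifs described, was at 23.2 to 44.4 CPM in the 6 WT hosts. It was at 6.61 to 7.91 CPM in WT => St2-/- and at 13.53, 15.98 and 7.654 CPM in St2-/- => St2-/- tumours. Again the hosts did not overlap. H2-Q2 fell by 1.66 ± 0.21 on the log2 scale, with the smallest adjusted p of the members (edgeR, 0.00473).

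H2-T23 encodes Qa-1, the chain that the CD94/NKG2A receptor of NK and CD8 T cells recognises. It was at 163.8, 229.3 and 183.9 CPM in WT => WT and at 175.3, 310.2 and 177.8 CPM in St2-/- => WT tumours. The St2-/- hosts had 75.49, 56.52 and 83.15 CPM with WT marrow and 99.57, 106.4 and 67.88 CPM with St2-/- marrow. The hosts did not overlap, and H2-T23 was 2.55-fold lower in St2-/- hosts (log2 fold change -1.35 ± 0.19, edgeR adjusted p = 0.00765). H2-M3, which presents N-formylated peptides of bacteria and mitochondria, was at 19.3 to 31.4 CPM in WT hosts. It was at 7.786, 8.174 and 13.54 CPM in WT => St2-/- and at 19.18, 13.06 and 13.53 CPM in St2-/- => St2-/- tumours. The hosts were separated by a narrow gap, between 19.18 CPM in St2-/- => St2-/- replicate 1 and 19.25 CPM in St2-/- => WT replicate 3. H2-M3 fell by 0.99 ± 0.19 on the log2 scale (edgeR adjusted p = 0.0345). This is the least secure of the 8 calls, since its adjusted p was 0.0513 to 0.125 in the 9 fits that lost it when 1 library was left out. Those libraries were all 3 of WT => WT, replicates 1 and 2 of St2-/- => WT, replicate 2 of WT => St2-/- and all 3 of St2-/- => St2-/-. Without WT => WT replicate 1 the log2 fold change was -1.03, and without St2-/- => WT replicate 2 it was -0.88.

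Nlrc5, the regulator, was at 54.86, 126.4 and 116.6 CPM in WT => WT and at 88.92, 161.6 and 91.58 CPM in St2-/- => WT tumours. It was at 10.32, 10.43 and 16.52 CPM in WT => St2-/- and at 28.35, 51.44 and 10.13 CPM in St2-/- => St2-/- tumours. The WT => St2-/- libraries were uniformly low, the St2-/- => St2-/- libraries were spread, and none reached the lowest WT host. Nlrc5 was 5.51-fold lower in St2-/- hosts (log2 fold change -2.46 ± 0.38, edgeR adjusted p = 0.0102).

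Cd1d1, whose product also pairs with beta-2-microglobulin, was at 11.76, 16.52 and 14.81 CPM in WT => WT and at 11.37, 13.8 and 14.74 CPM in St2-/- => WT tumours. It was at 8.886, 18.87 and 20.13 CPM in WT => St2-/- and at 36.37, 17.41 and 21.8 CPM in St2-/- => St2-/- tumours. The hosts overlapped, and the 3 St2-/- => St2-/- libraries were above all WT hosts. The log2 fold change was 0.54 ± 0.24 (edgeR adjusted p = 0.235), so Cd1d1 did not pass the test in either direction. H2-T22 had 1 read in WT => St2-/- replicate 2 and none elsewhere, so no level or fold is given for it, and the part that reads shared with H2-T10 have in this low count was not tested.

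**Figure D2:**
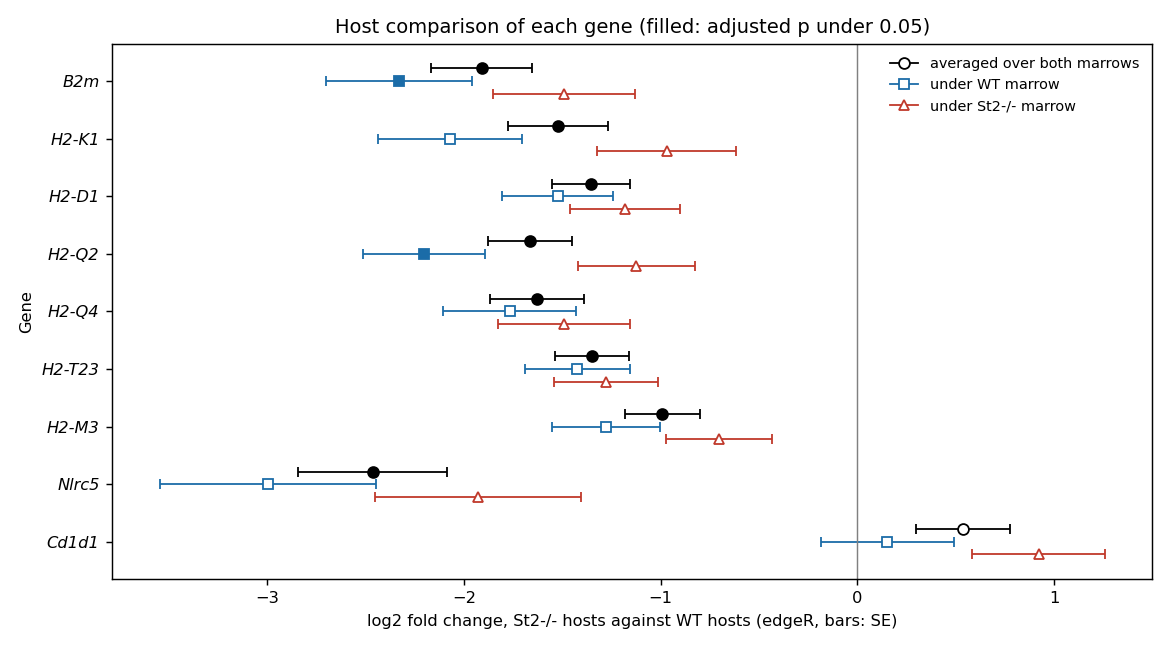
Log2 fold change of each gene in St2-/- hosts against WT hosts (horizontal axis), averaged over both marrows (circles), under WT marrow (squares) and under St2-/- marrow (triangles), with SE as bars. Filled symbols passed an adjusted p under 0.05 in edgeR. Cd1d1 is the only gene to the right of 0, and 8 circles, 2 squares and no triangle are filled.

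Within each marrow genotype the comparison rests on 3 libraries against 3. Under WT marrow, 2 members fell, B2m (log2 fold change -2.33 ± 0.37, edgeR adjusted p = 0.0458) and H2-Q2 (-2.20 ± 0.31, adjusted p = 0.0252), while 0.12% of all genes fell. Nlrc5 was at -3.00 ± 0.55, with an adjusted p of 0.0568, and 8 of 9 members had an unadjusted p under 0.05, as had 16.7% of all genes. The count of 2 was unstable, and so was the count over all genes, 24 in either direction. Without St2-/- => St2-/- replicate 2 the members called were 5 (42 of all genes). They were 4 without WT => WT replicate 1 (58 of all genes) and 1 without St2-/- => WT replicate 3 (13 of all genes). None was called without WT => WT replicate 2 or 3, St2-/- => WT replicate 1, WT => St2-/- replicate 2 or 3, or St2-/- => St2-/- replicate 1. In those fits 1 to 12 of all genes were called. The DESeq2 Wald test called 8 (4.96% of all genes) and limma-voom 7 (2.08%).

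Under St2-/- marrow edgeR called none of the 9 members (adjusted p of 0.170 or more), while 0.0598% of all genes were called. All 9 had an unadjusted p under 0.05, against 12% of all genes. Nlrc5 was at -1.93 ± 0.52, B2m at -1.49 ± 0.36, H2-Q4 at -1.49 ± 0.34 and H2-K1 at -0.97 ± 0.36 on the log2 scale. Cd1d1 had the opposite sign, at 0.92 ± 0.34. The DESeq2 Wald test called 6 (1.74% of all genes) and limma-voom 8 (13.3%). In St2-/- => St2-/- against WT => WT tumours, edgeR again called none of 9, against 0.0266% of all genes, and all 9 had an unadjusted p under 0.05, against 13.7%. B2m was at -1.62 ± 0.36 and Nlrc5 at -1.73 ± 0.52 there, and DESeq2 called 7 (3.56% of all genes) and limma-voom 8 (11.4%). This comparison shares its libraries with the 2 preceding ones.

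The test of whether the host difference itself depended on the marrow called none of the 9 members and none of all genes (0%). All 9 were above 0, that is, with a smaller fall or larger rise under St2-/- marrow, while 51.0% of all genes were below 0. The 9 share their libraries, so their signs are not independent of each other. H2-D1, H2-Q4 and H2-T23 changed sign under another setting. The largest differences were those of H2-K1 (1.10 ± 0.50, edgeR adjusted p = 0.661) and H2-Q2 (1.08 ± 0.42, adjusted p = 0.613). Of the members, 1 had an unadjusted p under 0.05, against 7.6% of all genes, and DESeq2 (0.619% of all genes) and limma-voom (0.0266%) called none of them. The host difference is thus not shown to differ between marrows for any member.

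Marrow genotype was compared within each host. In WT hosts no member was called, no gene was called (0%), no member had an unadjusted p under 0.05 against 6.04% of all genes, and the log2 fold changes of the 9 lay between -0.31 and 0.20. In St2-/- hosts all 9 members were higher in tumours with St2-/- marrow, by 0.25 to 1.27 on the log2 scale. Thus 0 of the 9 were below 0, against 51.6% of all genes. None was called by edgeR (adjusted p = 0.995), nor was any other gene (0%), and 4 had an unadjusted p under 0.05, against 4.05% of all genes. These 4 were Nlrc5 (1.27 ± 0.53), H2-K1 (0.85 ± 0.36), H2-Q2 (0.77 ± 0.30) and H2-M3 (0.63 ± 0.27). The sign of H2-D1 and H2-Q4 changed under another setting, and DESeq2 and limma-voom called no member in either host, while DESeq2 called 0.12% and limma-voom 0.0266% of all genes in St2-/- hosts. With both hosts averaged, Nlrc5 was at 0.73 ± 0.36 (edgeR adjusted p = 0.999), no member was called (0% of all genes), and none had an unadjusted p under 0.05, against 2.76% of all genes.

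The members did not change by equal amounts. The ratio of each member to B2m in the same library does not depend on library scaling, and it was compared between the 6 WT and 6 St2-/- hosts by an exact two-sided permutation test with Benjamini-Hochberg adjustment over 8 ratios. The smallest p that 924 regroupings allow is 0.00216. Of the 8 ratios, 7 differed. All 8 share B2m, which itself fell in St2-/- hosts, so a gene without any change would also be higher relative to B2m. The share of all genes whose ratio to B2m differs was not computed, so the count of 7 has no background. Relative to B2m, 5 heavy chain genes were higher in St2-/- hosts, which means that they fell less than B2m. The difference in log2 ratio was 0.43 for H2-K1 (adjusted exact p = 0.0115), 0.55 for H2-D1 (0.0139), 0.28 for H2-Q2 (0.0223), 0.59 for H2-T23 (0.0130) and 0.93 for H2-M3 (0.00866). H2-Q4 differed by 0.25 (adjusted exact p = 0.331) and did not pass. Nlrc5 fell more than B2m, with a difference of -0.61 (adjusted exact p = 0.0223).

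Cd1d1 stood farthest from B2m. Its log2 ratio was -7.02 ± 0.33 (SD, n = 6) in WT hosts and -4.63 ± 0.63 in St2-/- hosts, a difference of 2.39 (adjusted exact p = 0.00866). All 6 St2-/- hosts were above all 6 WT hosts in this ratio, the lowest St2-/- host at -5.62 and the highest WT host at -6.50. They were also above for H2-M3, but nearly tied, at -6.03005 and -6.03244. B2m itself did not overlap between hosts, so a separation in this ratio does not show a change of Cd1d1. The CPM of Cd1d1 overlapped between hosts, and Cd1d1 did not pass the edgeR test. The count of 7 stayed at 7 with any 1 library left out. With the mean of H2-K1 and H2-D1 as the reference in place of B2m, 3 of 7 ratios differed. These were B2m itself, lower by 0.49 (adjusted exact p = 0.00758), Nlrc5, lower by 1.10 (0.0101), and Cd1d1, higher by 1.90 (0.00758). H2-Q2, H2-Q4, H2-T23 and H2-M3 did not pass against that reference. The H2-M3 ratio to it differed by 0.44, with an adjusted exact p of 0.106.

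**Figure D3:**
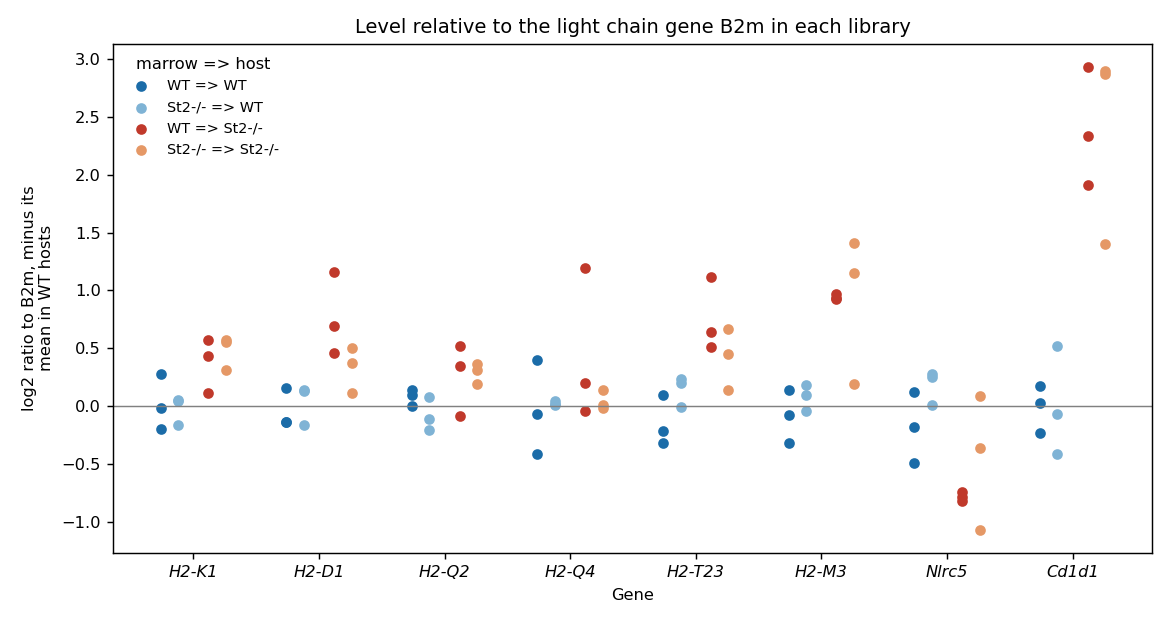
Log2 ratio of each gene to B2m in the same library, minus the mean of that ratio in WT hosts (vertical axis, so that 0 is the WT host mean). Points are the 12 libraries, coloured by group. The heavy chain genes of St2-/- hosts lie mostly above 0, Nlrc5 mostly below, and Cd1d1 highest, with a mean difference of 2.39.

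Levels of different members were set side by side per length, as CPM per kilobase of the longest coding transcript. The full length was used, although reads that fit several places entered no count. Levels of genes with many shared windows can therefore be too low. The share of such windows was 39.2% for H2-Q4, 29.8% for H2-T23, 25.8% for Cd1d1 and 8.79% for H2-K1, so the order of near levels is uncertain. B2m was the highest member in every group, at 2260 ± 685 CPM per kb in WT => WT and 449.4 ± 137.1 in WT => St2-/- tumours (SD, n = 3). H2-D1 was next, at 600.2 ± 132.7 and 208.7 ± 34.3 in the same groups, and it overlapped neither B2m nor the next gene in any group. H2-Q4 followed at 267.2 ± 8.5 and 78.5 ± 29.7. Its range overlapped that of H2-T23 in every group but WT => WT, and that of H2-K1 in both St2-/- host groups. H2-K1 (166.9 ± 77.7 and 39.7 ± 5.5) and H2-T23 (130.7 ± 22.8 and 48.7 ± 9.3) came next, and their libraries overlapped in all 4 groups. H2-Q2 was at 26.4 ± 8.0 and 5.74 ± 0.52, and H2-M3 at 16.6 ± 2.5 and 6.84 ± 2.24.

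The low end of the order differed between hosts. Nlrc5 was at 13.1 ± 5.1 CPM per kb in WT => WT and 15.1 ± 5.4 in St2-/- => WT tumours, and Cd1d1 at 7.38 ± 1.24 and 6.84 ± 0.89. In WT => St2-/- tumours Nlrc5 was at 1.64 ± 0.47 and Cd1d1 at 8.20 ± 3.17, and in St2-/- => St2-/- tumours they were at 3.96 ± 2.73 and 13.0 ± 5.1. Cd1d1 thus ranked 9 and Nlrc5 ranked 8 in both WT host groups, and Cd1d1 ranked 6 and Nlrc5 ranked 9 in both St2-/- host groups. Their libraries did not overlap in the St2-/- host groups or in St2-/- => WT, and did overlap in WT => WT. The range of Cd1d1 overlapped those of H2-M3 and H2-Q2 in both St2-/- host groups, so its rank of 6 there is not a separate level.

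Whether levels also varied together within a host genotype was asked next. Since hosts differ in level, the relation to Nlrc5 was computed within the 6 WT and within the 6 St2-/- hosts, each holding both marrow groups, on log2 CPM of genes that share their libraries. Pearson's r with Nlrc5 was above 0 for 8 of 8 members in both, with a range of 0.56 to 0.84 in the former and 0.36 to 0.97 in the latter. Spearman's rho was 0.60 to 1.00 and 0.029 to 0.83. None of the 32 relations passed the adjustment. The smallest adjusted p, 0.0889, was shared by 3 relations, by r or by rho. They were B2m in St2-/- hosts (r = 0.97, exact permutation p = 0.00694, adjusted p = 0.0889; rho = 0.83, exact p = 0.0583, adjusted p = 0.144), H2-Q2 in St2-/- hosts (r = 0.97, exact p = 0.00833, adjusted p = 0.0889; rho = 0.77, exact p = 0.103, adjusted p = 0.173) and H2-T23 in WT hosts (r = 0.84, exact p = 0.0403, adjusted p = 0.129; rho = 1.00, exact p = 0.00278, adjusted p = 0.0889). The value 0.00278 is the smallest that 720 pairings can give. Without the 2 libraries farthest from the median of Nlrc5, r with B2m was 0.91 in St2-/- hosts and 0.92 in WT hosts. In St2-/- hosts it went from 0.97 to 0.61 for H2-Q2 and from 0.96 to 0.51 for H2-K1, so both relations rest largely on St2-/- => St2-/- replicates 1 and 2.

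**Figure D4:**
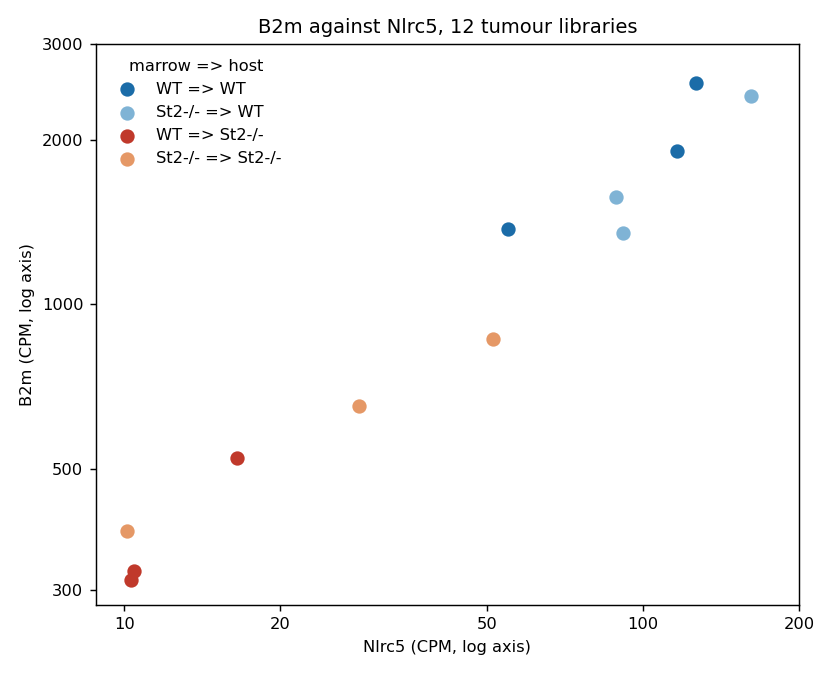
B2m (vertical, CPM, log axis) against Nlrc5 (horizontal, CPM, log axis), with 1 point for each of the 12 tumour libraries, coloured by group. WT hosts lie at the upper right with Nlrc5 at 54.86 CPM or more, and St2-/- hosts at the lower left with Nlrc5 at 51.44 CPM or less.

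With the mean of each host genotype subtracted, the genes outside the members whose log2 CPM was most like that of Nlrc5 over the 12 libraries were Tap1 (r = 0.95), Psmb8 (0.95), Tap2 (0.94), Psmb9 (0.94) and Cxcl11 (0.94), out of 11484 named genes. For B2m they were H2-T10 (0.98), Psmb8 (0.96), Slfn2 (0.93), Tap1 (0.90) and Psmb9 (0.90). Among the members themselves, B2m and H2-K1 reached 0.94, H2-K1 and H2-Q2 0.95, and B2m and Nlrc5 0.93. Cd1d1 was least like the others, at -0.13 with H2-Q4 and -0.0057 with H2-D1, and at 0.74 with H2-M3. These values describe libraries that share their scaling, and they carry no test.

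The rest of the presentation pathway was followed in lists of genes known for a role in it. Of 13 genes for peptide supply and loading, 10 fell in St2-/- hosts and none rose (edgeR, adjusted p under 0.05, against 1.08% of all genes that fell), with a median log2 fold change of -0.93. Psmb8, an immunoproteasome subunit, was at 332 ± 94 CPM (SD, n = 6) in WT hosts and 72.4 ± 35.9 in St2-/- hosts (log2 fold change -2.24 ± 0.28, adjusted p = 0.00454). Psmb9, another such subunit, was at -2.13 ± 0.32 (adjusted p = 0.00926). Tap1 and Tap2, the subunits of the peptide transporter, were at -2.41 ± 0.34 (adjusted p = 0.00777) and -1.74 ± 0.24 (0.00737). The hosts did not overlap for any of these 4 genes. DESeq2 called 12 of the 13 and limma-voom 13. Over all genes edgeR called 206 in the main fit and 136 with a leukocyte score as a covariate. In the fits with 1 library left out that are named next it called 80 to 148. The count of 10 was 6 with a leukocyte score as a covariate, 5 without WT => WT replicate 3 or St2-/- => St2-/- replicate 1, and 6 without St2-/- => WT replicate 2, WT => St2-/- replicate 3 or St2-/- => St2-/- replicate 3. It was 0 without WT => St2-/- replicates 2 and 3.

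Of 30 other class I and class I-like chain genes, 12 were tested, and 2 fell and none rose by edgeR. DESeq2 and limma-voom each called 4, against 7.96% and 12.3% of all genes. An unadjusted edgeR p under 0.05 was found for 7, against 3099 of all 15060 genes. Of the 30, 8 had no read in any library, among them H2-Q6, H2-Q7, H2-Q8 and H2-Q9. The 2 that fell were H2-Q10 (log2 fold change -1.47 ± 0.28, edgeR adjusted p = 0.0334) and H2-T10 (-1.34 ± 0.27, adjusted p = 0.0399). H2-T10 was at 16.4 ± 4.5 CPM (SD, n = 6) in WT hosts and 6.58 ± 2.58 in St2-/- hosts. Over all genes edgeR called 206 in the main fit and 80 to 139 in the fits of the next sentence. The count of 2 was 0 without WT => WT replicate 2, St2-/- => WT replicate 2, WT => St2-/- replicate 2 or any one of the St2-/- => St2-/- libraries. It was 1 without WT => WT replicate 1 or 3, St2-/- => WT replicate 1 or WT => St2-/- replicate 3, and 0 with the leukocyte score, with weeks after AOM as a covariate, or without WT => St2-/- replicates 2 and 3.

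Upstream of Nlrc5, 3 of 10 genes of interferon gamma signalling fell and none rose by edgeR, against 1.08% of all genes that fell, with a median of -0.58. In either direction, DESeq2 called 6 of the 10 (7.96% of all genes) and limma-voom 7 (12.3%). An unadjusted edgeR p under 0.05 was found for 6, against 3099 of all 15060 genes. Irf1, a transcription factor of class I promoters, was at 440 ± 151 CPM (SD, n = 6) in WT hosts and 129 ± 24 in St2-/- hosts (log2 fold change -1.76 ± 0.21, edgeR adjusted p = 0.00331). Ifng itself had 6 to 48 reads in each WT host and 0 to 2 in each St2-/- host (-4.57 ± 0.73, edgeR adjusted p = 0.0124). The hosts did not overlap for Irf1 or Ifng. Without WT => St2-/- replicates 2 and 3 the count was 0.

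In contrast to Nlrc5, none of 9 partner genes of the SXY complex and related factors was called, with a median of -0.0061. Ciita, the class II counterpart of Nlrc5, was at -1.70 ± 0.56 (edgeR adjusted p = 0.147), Atf1 at 0.20 ± 0.12 (adjusted p = 0.361), Creb1 at 0.12 ± 0.09 and Nfyc at -0.08 ± 0.09. At an unadjusted p under 0.05, edgeR passed 1 of the 9, against 3099 of all 15060 genes. The adjusted p of DESeq2, of limma-voom, and of edgeR with the leukocyte score as a covariate also passed 1 of the 9 each. None of 6 NF-kB genes was called by edgeR or DESeq2 and 1 by limma-voom (1 with an unadjusted edgeR p under 0.05), with a median of -0.12 and Nfkbia at -0.37 ± 0.16 (adjusted p = 0.231). Of the 6 tested receptors on T and NK cells for class I or class I-like molecules, 1 fell, Klrk1 (-1.98 ± 0.38, edgeR adjusted p = 0.0345). It encodes NKG2D, whose ligands are not among the members and were listed apart. DESeq2 called 4 of the 6, limma-voom 3, and 4 had an unadjusted edgeR p under 0.05. Cd8a was at 7.21 to 14.7 CPM in WT hosts and 0.309 to 6.09 CPM in St2-/- hosts, with an adjusted p of 0.0793. The call of Klrk1 was lost, with no other receptor called, without any one of the WT => WT libraries, St2-/- => WT replicate 1 or 2, WT => St2-/- replicate 2, St2-/- => St2-/- replicate 1 or 3, or WT => St2-/- replicates 2 and 3 together.

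Markers of other cell types are given beside the fall of the members, and their part in it was not tested. The 8 general leukocyte markers summed to 253 to 744 CPM in WT hosts and 178 to 852 CPM in St2-/- hosts, none of the 8 was called by edgeR, DESeq2 or limma-voom or had an unadjusted edgeR p under 0.05, and their median log2 fold change was -0.39. With their mean as a covariate, 7 of the 9 members were called, against 0.903% of all genes. By edgeR none of 7 T cell, 8 macrophage or 12 epithelial markers was called, while 1, 3 and 4 of them had an unadjusted p under 0.05, DESeq2 called 1, 0 and 1, and limma-voom 1, 1 and 3. Over all genes in this comparison, 3099 of 15060 had an unadjusted edgeR p under 0.05, and DESeq2 called 7.96% and limma-voom 12.3%. Of 7 dendritic cell markers 1 fell, Clec9a (-1.36 ± 0.26, edgeR adjusted p = 0.0330), while DESeq2 and limma-voom each called 3 and 4 passed at an unadjusted edgeR p under 0.05. With the leukocyte score as a covariate edgeR called 0 of the 7. These markers summed to 30.7 to 62.2 CPM in WT hosts, 13.2 to 30.2 CPM in WT => St2-/- and 32.4 to 39.7 CPM in St2-/- => St2-/- tumours. The macrophage markers summed to 490 to 1008 CPM in WT hosts, 237 to 471 CPM in WT => St2-/- and 513 to 517 CPM in St2-/- => St2-/- tumours. The 9 smooth muscle markers summed to 367 to 3684 CPM in WT => St2-/-, 553 to 3037 CPM in St2-/- => WT and 258 to 550.1 CPM in the other tumours. None of them was called by the 3 tools or had an unadjusted p under 0.05, and 8 members were called with their mean as a covariate, against 2.14% of all genes. Mast cell markers summed to 71.3 to 243 CPM in WT hosts and 182 to 1970 CPM in St2-/- hosts, with none of 6 called by edgeR or limma-voom, 3 by DESeq2 and 5 with an unadjusted edgeR p under 0.05.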

How the data were processed

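The deposited values are raw read counts per gene, 1 table of 24062 genes and 12 libraries. Per the labels' protocols, TruSeq RNA libraries were sequenced as single-end 50-base reads, and TopHat with Bowtie2 aligned them to GRCm38, also called mm10, per the submitters' processing notes. The versions of both, the counter, its annotation and its strand setting are not given in the sources used here. Library sizes and tests left out 5 summary entries without a gene name, which made up 49.8% to 59.6% of a library (36.7% to 48.9% were alignments that were not unique).

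In R 4.3.3, edgeR 4.0.16 fitted the counts (filterByExpr with a minimum count of 10, TMM factors of 0.899 to 1.12, robust quasi-likelihood, 1 coefficient per group, two-sided). P-values were adjusted by Benjamini-Hochberg over the 15060 genes tested and called under 0.05. The log2 CPM had a prior count of 2. SE are those of log2 fold changes and SD those over libraries. Gene counts of 10293818 to 12962496 limit the precision of low genes. The edgeR step was tested on simulated data. Windows, lengths and coordinates came from GENCODE M21 with Python 3.11.15.

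The members, lists, tests and alternatives were chosen with earlier results of these data known. All 10 members are named, Il1rl1, from each other list described up to 4 tested genes with the smallest p in the host comparison, and the 5 genes most like B2m and Nlrc5 among genes with a mean CPM of at least 5. H2-T10, H2-L and the H2-Q6 to H2-Q9 genes were named for reads shared with members, and lists of NK, B, neutrophil, endothelial, enteric and NKG2D ligand genes had no gene called by edgeR. Of these lists, only 2 of 6 NK and 1 of 9 NKG2D ligand genes were tested. An unadjusted edgeR p under 0.05 was found for 3 of 5 neutrophil, 1 of 6 endothelial and 1 of 7 enteric genes, against 3099 of all 15060. Of them, limma-voom called 1 neutrophil gene and DESeq2 1 enteric gene. The values of 1 gene that fell in the list of interferon gamma signalling, and 1 motif searched, are not reported here. Since H2-T22 was filtered out, 8 ratios and 32 relations were tested. Alternatives were the Wald test of DESeq2 1.42.0 and its size factors, limma-voom (limma 3.58.1), other filters, covariates, a replicate block, only the groups compared, and libraries left out.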

Additional observations from a re-analysis of the deposited data

How the results depend on the processing

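In the comparison of hosts averaged over marrows, the count of 8 members called was 7 with weeks after AOM or the leukocyte score as a covariate, 8 with DESeq2 size factors, DESeq2, limma-voom, both other filters or the smooth muscle score, and 6 to 8 with 1 library left out. It was 0 without WT => St2-/- replicates 2 and 3, where fewer libraries set the spread. Under WT marrow the count of 2 became 8 with DESeq2, 7 with limma-voom and 0 with weeks, the leukocyte score, the smooth muscle score, only the 2 groups compared or both of those libraries left out, and 0 to 5 with 1 library left out. Under St2-/- marrow the count of 0 became 6 with DESeq2 and 8 with limma-voom. For St2-/- => St2-/- against WT => WT it became 7 and 8. The cause was not tested. Cd1d1 under WT marrow, at 0.15, reversed to -0.36 with the smooth muscle score and to -0.69 without WT => St2-/- replicates 2 and 3, and with 1 library left out it was -0.053 (without WT => St2-/- replicate 3) to 0.44. With the replicate block, 7 members were called in the averaged comparison and 1 under WT marrow, and 0 of the other class I chains and 0 of the receptors were called. Of 18 correlations between libraries of the same replicate number, 5 were over 0.1 (-0.44 to 0.31). Pairs of different numbers were not computed, so a pairing by replicate number is neither shown nor excluded. Of 8 ratios to B2m 7 differed, and 3 of 7 with the mean of H2-K1 and H2-D1 as the reference. A prior count of 0.5 changed no call. No relation to Nlrc5 passed with DESeq2 size factors either, and 4 libraries are too few for a test after the 2 farthest are left out. No marrow or interaction count changed from 0. Depth limits H2-T22 (1 read) and Ifng.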
